A study of Mus musculus with 12 samples.

Results

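The genes described here make, sense and remove extracellular adenosine: the ectonucleotidase genes Nt5e (CD73) and Entpd1 (CD39), Cd38, the adenosine receptor gene Adora2a, the adenosine deaminase gene Ada and Dpp4 (CD26). They were chosen by symbol, as known members of this route, with earlier results of these data known. They make up 6 of the 35492 gene symbols measured in every library. All 6 are protein-coding in GENCODE mouse release 21 on GRCm38 (mm10). Nt5e lies at chr9:88327197-88372092 on the plus strand, Entpd1 at chr19:40612366-40741602 on the plus strand, and Cd38 at chr5:43868553-43912375 on the plus strand. Adora2a lies at chr10:75316877-75334784 on the plus strand, Ada at chr2:163726584-163750239 on the minus strand, and Dpp4 at chr2:62330073-62412231 on the minus strand. Antisense genes overlap Dpp4 (Gm13561) and Cd38 (Gm16015), and same-strand pseudogenes (Gm16027 and Gm8783) lie within Entpd1. Whether the authors' counting used the strand is not given in the sources used here, so reads of Dpp4 and Cd38 may not be separated from those of their antisense partners.

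ATP released by stressed or dying cells is cut to AMP by the ecto-enzyme CD39, and AMP is cut to adenosine by CD73. CD38 consumes NAD and opens a second path that also ends in AMP and CD73. Adenosine that reaches the receptor encoded by Adora2a raises cyclic AMP through a stimulatory G protein and dampens T cell activation, and tumours are known for high extracellular adenosine. Adenosine deaminase ends the signal by turning adenosine into inosine, and human CD26 can hold this enzyme at the T cell surface. Binding of it by mouse CD26 was not tested. Regulatory T cells and several myeloid cells are known to carry CD39, and in mice many T cells carry CD73.

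The study read RNA of CD4+ T cells from C57BL/6J mice aged 7 weeks, in 4 groups of 3 libraries (12 in all). Tfh_TILS libraries came from tumours of MC38, a mouse colon carcinoma line, out of which cells positive for CD4, CXCR5 and PD1 were taken, the markers of T follicular helper (Tfh) cells. Tfh_Vitro libraries came from naive T cells of wild-type (WT) spleen and lymph nodes. These cells were grown on plates coated against CD3 and CD28 with IL-6 and IL-21 at 50 ng/ml each and antibodies blocking IL-4, IFNγ and TGFβ at 10 µg/ml each. Tfh_OTII libraries came from the same culture of naive T cells labelled OT-II, a mouse line whose T cells carry one transgenic receptor for an ovalbumin peptide. Th1_Vitro libraries came from WT naive T cells grown on such plates with IL-12 at 10 ng/ml and an antibody blocking IL-4 at 10 µg/ml, a culture that drives the T helper 1 (Th1) fate. Titles give 24 h of culture for both WT cultures and 48 h for the OT-II culture, whereas the protocol gives 48 h for each kind of culture. OT-II origin and the titles' longer time therefore cannot be told apart in any comparison with Tfh_OTII. Tumour origin and isolation without culture likewise cannot be told apart in comparisons with Tfh_TILS.

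Values are in TPM, an abundance corrected for transcript length that sums to the same total in each library, so levels of different genes within a library can be compared. The deposited files carry no sequencing depth, which is therefore unknown. The genes of the gate were present: mean TPM in Tfh_TILS was 142 for Cd4, 14 for Cxcr5 and 31.4 for Pdcd1, which encodes PD1. The Th1_Vitro libraries stood apart, with 33.4% to 61.6% of all TPM in 11 repeat-like gene models against at most 18.6% elsewhere, which lowers every other gene's TPM. Each difference is therefore given as deposited and after scaling by median-of-ratios size factors. This scaling moved the median log2 difference of all genes by 0.64 to 0.72 in the comparisons with Th1_Vitro and by 0.1 or less in the others. Differences are of mean log2(TPM + 1) ± standard error (SE) from limma fitted to all 12 libraries, which understates changes of low genes. The SE draws on the spread of all 4 groups together, so a wide spread in 1 group widens it in every comparison. Calls are made where the p adjusted over 23308 genes (Benjamini-Hochberg) is under 0.05. The words rose and fell are kept for calls that hold, with one sign, both as deposited and after scaling. Nothing states that replicates came from separate animals or cultures, so these p-values measure only the spread between libraries.

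The RefSeq sequence upstream of the annotated starts is shown for the members whose window lies outside the exons of the deposited build's GENCODE annotation. Those of Entpd1 are shown because 2 separate starts are annotated for it, which the gene-level TPM does not separate. Use of either start in these cells was not tested. Those of Ada and Dpp4 are shown because both genes were at their highest TPM in Tfh_OTII. Each run is the 250 bases before the start, 5′ to 3′ in the direction of the gene, on build GRCm38.p6. Capitals mark matches, on either strand, to a GC box (GGGCGG), the CCAAT box, a TATA element (TATAAA), the palindrome that STAT factors can bind (TTCNNNGAA), the hypoxia element core (ACGTG) or the core of a cyclic AMP response element (TGACG). The motifs were searched separately and matches may overlap.
Entpd1 start 1, chr19:40612116-40612365, plus strand: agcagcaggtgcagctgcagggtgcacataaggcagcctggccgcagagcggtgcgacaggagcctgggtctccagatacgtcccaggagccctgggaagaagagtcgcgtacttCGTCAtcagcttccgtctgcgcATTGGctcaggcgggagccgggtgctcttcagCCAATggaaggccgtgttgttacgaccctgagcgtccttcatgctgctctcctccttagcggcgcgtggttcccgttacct
Entpd1 start 2, chr19:40659520-40659769, plus strand: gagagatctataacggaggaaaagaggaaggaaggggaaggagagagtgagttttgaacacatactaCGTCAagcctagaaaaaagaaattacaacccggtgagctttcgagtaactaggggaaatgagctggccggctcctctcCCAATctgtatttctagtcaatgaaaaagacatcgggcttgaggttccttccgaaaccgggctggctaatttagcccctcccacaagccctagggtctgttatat
Ada, chr2:163750240-163750489, minus strand: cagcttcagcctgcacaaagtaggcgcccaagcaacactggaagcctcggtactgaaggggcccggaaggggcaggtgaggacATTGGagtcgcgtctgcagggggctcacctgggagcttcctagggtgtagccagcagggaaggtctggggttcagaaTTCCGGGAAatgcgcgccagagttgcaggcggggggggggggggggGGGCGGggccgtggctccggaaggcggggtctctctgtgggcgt
Dpp4, chr2:62412232-62412481, minus strand: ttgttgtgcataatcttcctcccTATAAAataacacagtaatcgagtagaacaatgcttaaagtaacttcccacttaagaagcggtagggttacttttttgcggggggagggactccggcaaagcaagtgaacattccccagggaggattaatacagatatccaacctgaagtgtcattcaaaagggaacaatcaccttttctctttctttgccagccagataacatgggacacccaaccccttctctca

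The first Entpd1 window was 62.4% G or C and the second 47.2%, against a median of 52.4% over 32851 windows of the same length. Both Entpd1 windows held CCAAT, which 33.8% of all windows hold, and TGACG, which 17.8% hold. The Ada window was 67.2% G or C and held 1 GGGCGG, 1 CCAAT and 1 TTCNNNGAA, found in 32.7%, 33.8% and 7.02% of all windows. The Dpp4 window was 43.6% G or C and its 1 match was TATAAA, found in 12.4% of windows. ACGTG, found in 16.6% of windows, matched none of these 4. Windows of Nt5e (72% G or C) and Cd38 (48.8%) overlap annotated first exons and are not printed, and Adora2a is named only. A match describes letters and shows no binding.

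Nt5e, whose product makes the adenosine itself, was called both as deposited and after scaling in 4 of the 6 comparisons, the most of the 6 genes. In Tfh_TILS it was at 39.1, 55.3 and 42.2 TPM in replicates 1, 2 and 3. In Tfh_Vitro it was at 20.9, 14.5 and 22.7 TPM. Every tumour library was above every culture library, and the group means were 45.5 ± 8.63 and 19.4 ± 4.3 TPM (SD, n = 3 each). In Tfh_OTII it was at 3.93, 3.15 and 2.13 TPM, and in Th1_Vitro at 1.02, 2.37 and 1.78 TPM. These last 2 groups overlapped and both lay below every Tfh_Vitro library. By means as deposited the order was Tfh_TILS, Tfh_Vitro, Tfh_OTII, Th1_Vitro. After scaling the mean of Th1_Vitro (3.21 scaled TPM) lay above that of Tfh_OTII (2.49).

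Nt5e fell in Tfh_OTII against Tfh_Vitro, by 2.33 ± 0.28 on the log2 scale (limma, adjusted p = 0.000977, and 0.00099 after scaling). It rose in Tfh_Vitro against Th1_Vitro, by 2.91 ± 0.28 (limma, adjusted p = 1.56e-05), or 2.11 after scaling (limma, adjusted p = 0.000506). It rose in Tfh_TILS against Th1_Vitro by 4.11 ± 0.28 (3.17 after scaling) and against Tfh_OTII by 3.52 ± 0.28 (3.38 after scaling). These calls held with any 1 library left out. The neighbours in the order that were called neither as deposited nor after scaling were Tfh_OTII and Th1_Vitro. Their difference was 0.59 ± 0.28 as deposited (limma, adjusted p = 0.104) and -0.2 after scaling. Between Tfh_TILS and Tfh_Vitro the difference was 1.2 ± 0.28, called as deposited (limma, adjusted p = 0.0466) but not after scaling (adjusted p = 0.0734). That call was lost when any library of Tfh_Vitro or Tfh_OTII, or Tfh_TILS replicate 2 or 3, was left out, with limma adjusted p from 0.0558 to 0.247, and after scaling a call appeared without Th1_Vitro replicate 1 (0.0402) or 2 (0.0321).

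**Figure D1:**
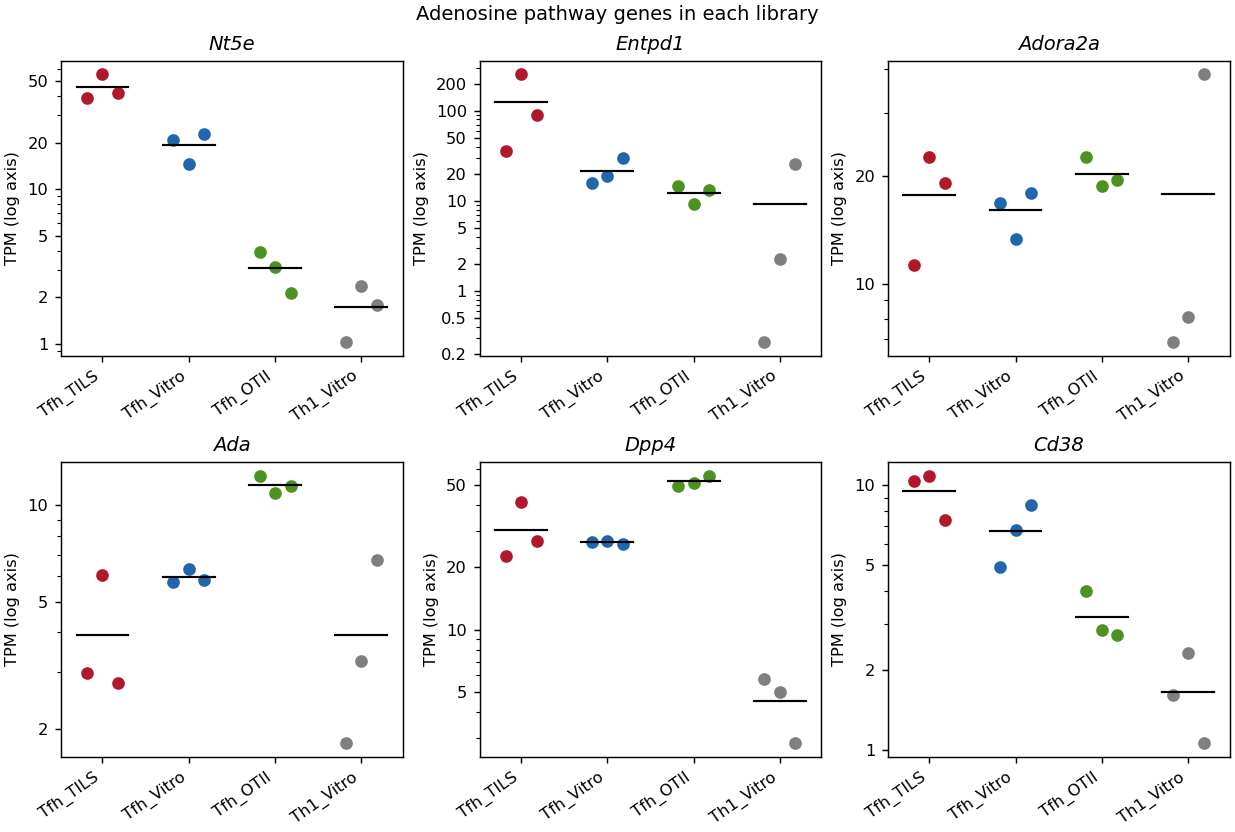
TPM (log axis) of each of the 6 genes in the 12 libraries, 1 point per library, with a line at the mean of the 3 libraries of a group. Nt5e separates into high tumour, intermediate Tfh_Vitro and low Tfh_OTII and Th1_Vitro libraries, Ada and Dpp4 are highest in Tfh_OTII among the Tfh groups, and Th1_Vitro replicate 3 stands far above its group for Entpd1 and Adora2a.

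Entpd1, the gene of CD39, which starts the path from ATP, had the highest mean TPM of the 6 in the tumour libraries and the widest spread there. In Tfh_TILS it was at 35.4, 252 and 89.4 TPM, a mean of 125 ± 113 TPM (SD, n = 3). In Tfh_Vitro it was at 15.9, 18.8 and 30 TPM and in Tfh_OTII at 14.5, 9.26 and 13.2 TPM. In Th1_Vitro it was at 0.272, 2.29 and 25.5 TPM. As deposited, the tumour libraries lay above all culture libraries, while Th1_Vitro spanned from far below the other cultures to within the range of Tfh_Vitro. By means the order was Tfh_TILS, Tfh_Vitro, Tfh_OTII (12.3 ± 2.72 TPM) and Th1_Vitro (9.36 ± 14 TPM), and no neighbours in it differed by the test with all libraries. After scaling, Th1_Vitro replicate 3 (38.5 scaled TPM) lay above every Tfh_Vitro library and above Tfh_TILS replicate 1 (31.1), and the mean of Th1_Vitro (14.6) above that of Tfh_OTII (10.2).

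Entpd1 rose in Tfh_TILS against Th1_Vitro, by 4.29 ± 0.88 (limma, adjusted p = 0.00181), or 3.38 after scaling (adjusted p = 0.0202). After scaling this call was lost without Tfh_TILS replicate 2 (limma, adjusted p = 0.0852), without Tfh_TILS replicate 3 (0.0502) or without Th1_Vitro replicate 1 (0.0513). Against Tfh_OTII the tumour difference was 2.84 ± 0.88, called as deposited (limma, adjusted p = 0.046) but not after scaling (0.0551). As deposited it was lost without Tfh_TILS replicate 2 or 3, any Tfh_Vitro or Tfh_OTII library or Th1_Vitro replicate 2 (limma, adjusted p from 0.0586 to 0.168). After scaling a call appeared without Tfh_TILS replicate 1 (0.0402) or Th1_Vitro replicate 1 (0.0137) or 3 (0.0061). Against Tfh_Vitro the tumour difference of 2.11 ± 0.88 was not called (limma, adjusted p = 0.293). The difference of 2.18 ± 0.88 between Tfh_Vitro and Th1_Vitro was not called (limma, adjusted p = 0.0624). Without Th1_Vitro replicate 3 it was 3.41 and called both as deposited (adjusted p = 0.00149) and after scaling (0.0185), and the difference of Tfh_OTII from Th1_Vitro, 1.45 ± 0.88 with all libraries, was then 2.68 and called as deposited (0.00585).

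Markers of other cells moved with Entpd1 across the tumour libraries. The summed TPM of 12 macrophage and monocyte markers was 92.7, 812 and 221 in Tfh_TILS replicates 1, 2 and 3, the same order as Entpd1. It was 24 to 41.5 in Tfh_Vitro, 11 to 37.6 in Tfh_OTII and 11 to 11.7 in Th1_Vitro. All 12 markers were above 0 in every Tfh_TILS and Tfh_Vitro library, while Adgre1 and C1qb were at 0 in at least 1 Tfh_OTII library and C1qa, C1qc and Fcgr1 in at least 1 Th1_Vitro library. Within groups, libraries fell in the same order by Entpd1 and by this sum in 3 of 4 groups, all but Tfh_OTII. In Th1_Vitro the sums were nearly flat, at 11, 11.6 and 11.7 TPM, beside Entpd1 at 0.272, 2.29 and 25.5 TPM, so the order there says little. Neutrophil markers (5 genes) summed to 6.59 to 474 TPM in Tfh_TILS, with S100a8 at 0 in at least 1 of these libraries, and to at most 17.5 TPM in any culture library. Dendritic cell markers (9 genes) summed to 244 to 787 TPM in Tfh_TILS and to 137 to 325 TPM in the cultures. Of them, Cd74 (90.7 to 396 TPM), H2-Aa (25 to 150) and H2-Ab1 (29.3 to 145) were higher in each tumour library than in each culture library. Ccr7 went the other way, at 55.4 to 87.4 TPM in Tfh_TILS and 106 to 193 TPM in the cultures. Xcr1 and Clec9a overlapped, at 6.3 TPM or less in every library. The part of macrophages, monocytes, neutrophils and dendritic cells in the Entpd1 values was not tested. In bulk RNA, a change in the share of cells that express a gene and a change in RNA per cell cannot be told apart.

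Foxp3, the transcription factor gene of regulatory T cells, moved with Nt5e. It was at 54.1, 147 and 74.4 TPM in Tfh_TILS, 28.6, 12.9 and 31.7 TPM in Tfh_Vitro, 2.19, 2.04 and 1.66 TPM in Tfh_OTII, and 0.626, 0.547 and 1.53 TPM in Th1_Vitro. Libraries fell in the same order by Nt5e and Foxp3 within 3 of 4 groups, all but Th1_Vitro. Foxp3 fell in Tfh_OTII against Tfh_Vitro by 3.01 ± 0.39 (limma, adjusted p = 0.00186), beside the fall of Nt5e. The 7 regulatory T cell markers summed to 1007 to 1911 TPM in Tfh_TILS, 781 to 1031 in Tfh_Vitro, 818 to 854 in Tfh_OTII and 177 to 301 in Th1_Vitro, and all 7 were above 0 in every library. Of these 7, Ikzf2 was at 25.5 to 62.7 TPM in Tfh_Vitro and 9.35 to 10.3 TPM in Tfh_OTII, and Lrrc32 at 5.45 to 12.2 and 1.99 to 4.25 TPM, without overlap as for Foxp3. Ctla4 was also lower without overlap, at 154 to 199 and 134 to 147 TPM. Il2ra, at 387 to 523 and 379 to 425 TPM, makes up much of the sum and overlapped, as did Nrp1, at 6.7 to 12.1 and 8.28 to 8.31 TPM. Tnfrsf18 went the other way without overlap, at 184 to 208 TPM in Tfh_Vitro and 260 to 280 TPM in Tfh_OTII. The part of regulatory T cells in the Nt5e and Entpd1 values was not tested.

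**Figure D2:**
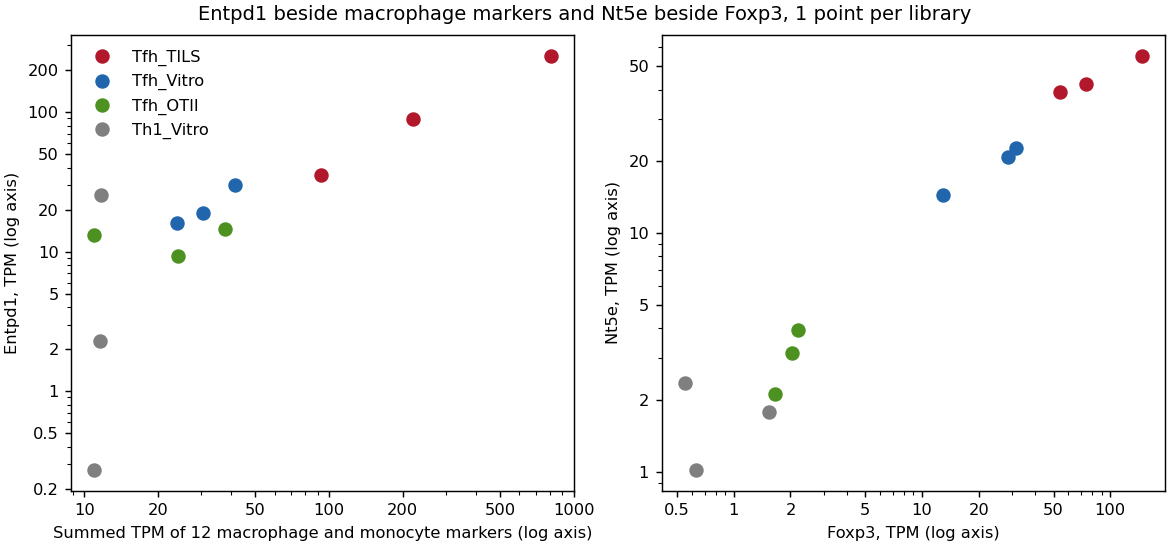
Left, Entpd1 TPM against the summed TPM of 12 macrophage and monocyte markers; right, Nt5e TPM against Foxp3 TPM, 1 point per library and all axes logarithmic. Tfh_TILS replicate 2 is highest on all 4 axes, at 252 TPM of Entpd1 beside 812 TPM of markers and 55.3 TPM of Nt5e beside 147 TPM of Foxp3.

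Cd38, the NAD-consuming enzyme, was lower than Nt5e and Entpd1 in each tumour library and ran in the same order of groups as Nt5e as deposited. It was at 10.4, 10.9 and 7.4 TPM in Tfh_TILS and at 4.9, 6.8 and 8.42 TPM in Tfh_Vitro, which overlapped. It was at 4, 2.85 and 2.71 TPM in Tfh_OTII and at 1.61, 2.32 and 1.06 TPM in Th1_Vitro, both below every Tfh_Vitro library as deposited. After scaling Th1_Vitro overlapped Tfh_Vitro and its mean (3.17 scaled TPM) was above that of Tfh_OTII (2.61). Cd38 rose in Tfh_TILS against Tfh_OTII by 1.33 ± 0.28 (limma, adjusted p = 0.00684), or 1.21 after scaling (adjusted p = 0.0173). It also rose in Tfh_TILS against Th1_Vitro, by 2.0 ± 0.28 (limma, adjusted p = 0.00016), or 1.08 after scaling (adjusted p = 0.0271). After scaling, the first call was lost without Tfh_TILS replicate 1 or 2 or Tfh_OTII replicate 2 or 3 (limma, adjusted p from 0.0513 to 0.0636), and the second without Tfh_TILS replicate 1 or 2 or Th1_Vitro replicate 3 (0.0761 to 0.0829). No neighbours in the order differed both ways: the differences were 0.46 ± 0.28 between Tfh_TILS and Tfh_Vitro, -0.87 ± 0.28 between Tfh_OTII and Tfh_Vitro, and 0.67 ± 0.28 between Tfh_OTII and Th1_Vitro (-0.13 after scaling). The difference of 1.54 ± 0.28 between Tfh_Vitro and Th1_Vitro was called as deposited (limma, adjusted p = 0.00107) but not after scaling (0.74, adjusted p = 0.12). Without Th1_Vitro replicate 2 the scaled difference was called (limma, adjusted p = 0.032), and so was that of Tfh_OTII from Th1_Vitro as deposited (0.0466).

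Adora2a, the receptor, was called by limma in none of the 6 comparisons, and in 0 of them was its unadjusted p under 0.05, as deposited or after scaling. It was at 11.3, 22.7 and 19.1 TPM in Tfh_TILS and at 16.8, 13.4 and 18 TPM in Tfh_Vitro. It was at 22.7, 18.8 and 19.5 TPM in Tfh_OTII and at 6.88, 8.07 and 38.5 TPM in Th1_Vitro. The tumour libraries overlapped those of each other group, and as deposited 1 Th1_Vitro library exceeded all others while the other 2 lay below all others. After scaling Th1_Vitro was at 12.7, 17.2 and 58.1 scaled TPM, the other 2 then within the range of the Tfh libraries (9.88 to 18.6). As deposited, group means lay between 16.1 ± 2.39 TPM in Tfh_Vitro and 20.3 ± 2.07 TPM in Tfh_OTII (SD, n = 3), and after scaling the mean of Th1_Vitro was the highest, at 29.3 ± 25, so no order of groups could be read. Between Tfh_TILS and Tfh_Vitro the difference was 0.09 ± 0.48 (limma, adjusted p = 0.976), and its sign turned after scaling (-0.04). Th1_Vitro replicate 3, the highest library, also had Cd4 at 231 TPM, beside 59.6 and 64 in the other 2, and 41.4% of all symbols at 0, the highest share of the 12 libraries; the part of these in its Adora2a was not tested. Without Th1_Vitro replicate 3, Adora2a was called higher as deposited in Tfh_Vitro (1.0, limma adjusted p = 0.00994), Tfh_TILS (1.09, adjusted p = 0.00558) and Tfh_OTII (1.33, adjusted p = 0.00164) than in Th1_Vitro, and in none of them after scaling.

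Ada, which removes adenosine, was at 2.99, 6.06 and 2.77 TPM in Tfh_TILS and at 5.77, 6.3 and 5.85 TPM in Tfh_Vitro. It was at 12.4, 10.9 and 11.5 TPM in Tfh_OTII and at 1.8, 3.26 and 6.76 TPM in Th1_Vitro. As deposited, Tfh_OTII libraries were above all 9 others, and the other groups overlapped one another. After scaling, Th1_Vitro replicate 3 (10.2 scaled TPM) lay above Tfh_OTII replicates 1 and 2 (8.64 and 9.34). Ada fell in Tfh_TILS against Tfh_OTII, by 1.41 ± 0.35 (limma, adjusted p = 0.0163), with -1.44 after scaling (adjusted p = 0.0105). As deposited this call was lost without Tfh_TILS replicate 1 (limma, adjusted p = 0.0528), Tfh_TILS replicate 3 (0.0656) or Tfh_OTII replicate 3 (0.0544), and after scaling without Tfh_OTII replicate 3 (0.0544). Against Tfh_Vitro the difference of Tfh_OTII was 0.85 ± 0.35 and that of Tfh_TILS -0.56 ± 0.35, neither called (limma, adjusted p = 0.295 and 0.553). Against Th1_Vitro, Tfh_OTII differed by 1.47 ± 0.35 as deposited (limma, adjusted p = 0.0044) and by 0.54 after scaling, where it was not called (adjusted p = 0.268). Tfh_Vitro differed from Th1_Vitro by 0.62 ± 0.35, or -0.25 after scaling, called as deposited without Th1_Vitro replicate 3 (limma, adjusted p = 0.0172), and Tfh_TILS by 0.07 ± 0.35, or -0.9 after scaling, called as lower then without Th1_Vitro replicate 1 (0.0107).

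Dpp4, the gene of the surface peptidase CD26, was lowest in Th1_Vitro. It was at 22.7, 41.3 and 26.8 TPM in Tfh_TILS and at 26.6, 26.9 and 26 TPM in Tfh_Vitro. It was at 49.3, 51.4 and 55.6 TPM in Tfh_OTII and at 5.75, 5.01 and 2.82 TPM in Th1_Vitro. Each Tfh library was above each Th1_Vitro library, and the Tfh_OTII libraries were above all others, while Tfh_TILS and Tfh_Vitro overlapped. Dpp4 rose against Th1_Vitro in Tfh_Vitro by 2.36 ± 0.26 (1.4 after scaling), in Tfh_TILS by 2.5 ± 0.26 (1.42) and in Tfh_OTII by 3.3 ± 0.26 (2.31). The limma adjusted p of these 3 was 4.48e-05, 3.58e-05 and 1.51e-06 as deposited and 0.00983, 0.00814 and 0.000249 after scaling. The order of means was Tfh_OTII (52.1 ± 3.17 TPM), Tfh_TILS (30.3 ± 9.76), Tfh_Vitro (26.5 ± 0.466) and Th1_Vitro (4.53 ± 1.52). Its first 3 places were not separated by the test: Tfh_TILS differed from Tfh_OTII by -0.81 ± 0.26 (limma, adjusted p = 0.0563) and Tfh_OTII from Tfh_Vitro by 0.95 ± 0.26 (0.0895). The first was called as deposited without Tfh_TILS replicate 2 (0.0214), Th1_Vitro replicate 1 (0.0465) or Th1_Vitro replicate 3 (0.0155), and the second without Th1_Vitro replicate 3 (0.023). After scaling both were called without Th1_Vitro replicate 3 (limma, adjusted p = 0.0138 and 0.0456). With only genes reaching 5 TPM tested, the first was called as deposited (0.0357). Summed over 10 genes, T cell markers were at 510 to 1180 TPM in Th1_Vitro and 1518 to 2401 TPM in the Tfh groups and the repeat-like models took the share given above, and the part of either in the low Dpp4 was not tested.

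Counts over the 6 genes are given beside the share of all tested genes that was called in the same comparison. Between Tfh_Vitro and Th1_Vitro, 3 of 6 were called as deposited, all higher, where 41.6% of all tested genes were called. Called both ways were 2, Nt5e and Dpp4, against 9.15% of all genes. Between Tfh_TILS and Th1_Vitro, 4 of 6 were called as deposited, against 49.9% of all genes. The same 4, Nt5e, Entpd1, Dpp4 and Cd38, were called both ways and higher in the tumour cells, against 10.7%. Between Tfh_OTII and Th1_Vitro, 2 of 6 were called as deposited against 43.9% of all genes, and 1, Dpp4, both ways against 13.4%. Among all called genes, 97.4% to 98.8% were higher than in Th1_Vitro as deposited and 59.3% to 63% after scaling.

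Between Tfh_TILS and Tfh_OTII, 4 of 6 were called as deposited, 3 higher and 1 lower, against 15.3% of all genes. Called both ways were 3, Nt5e and Cd38 higher and Ada lower, against 13.6%. Between Tfh_TILS and Tfh_Vitro, 1 of 6 was called as deposited, Nt5e, against 2.10% of all genes, and 0 both ways by limma against 1.81%, with 2 at an unadjusted p under 0.05 either way. Between Tfh_OTII and Tfh_Vitro, 1 of 6 was called, Nt5e, lower both ways, against 2.38% as deposited and 1.82% both ways. The libraries of these last 2 groups did not overlap for any of the 6 genes: Nt5e, Entpd1 and Cd38 were lower and Adora2a, Ada and Dpp4 higher in each Tfh_OTII library, and for 5 of these 6 the difference did not pass the test. Of all tested genes, 29.1% did not overlap between these groups, or 22.0% after scaling, where all 6 still did not. Median differences over the 6 genes were 1.86, 2.25 and 1.06 for Tfh_Vitro, Tfh_TILS and Tfh_OTII against Th1_Vitro, beside 0.78, 0.87 and 0.79 over all genes, and 1.07, 1.25 and 0.2 after scaling, beside 0.14, 0.16 and 0.12. They were 0.55 for Tfh_TILS against Tfh_OTII, 0.3 for Tfh_TILS against Tfh_Vitro and -0.2 for Tfh_OTII against Tfh_Vitro, beside 0.06, 0.1 and 0.05. These comparisons share groups and are not independent of one another.

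**Figure D3:**
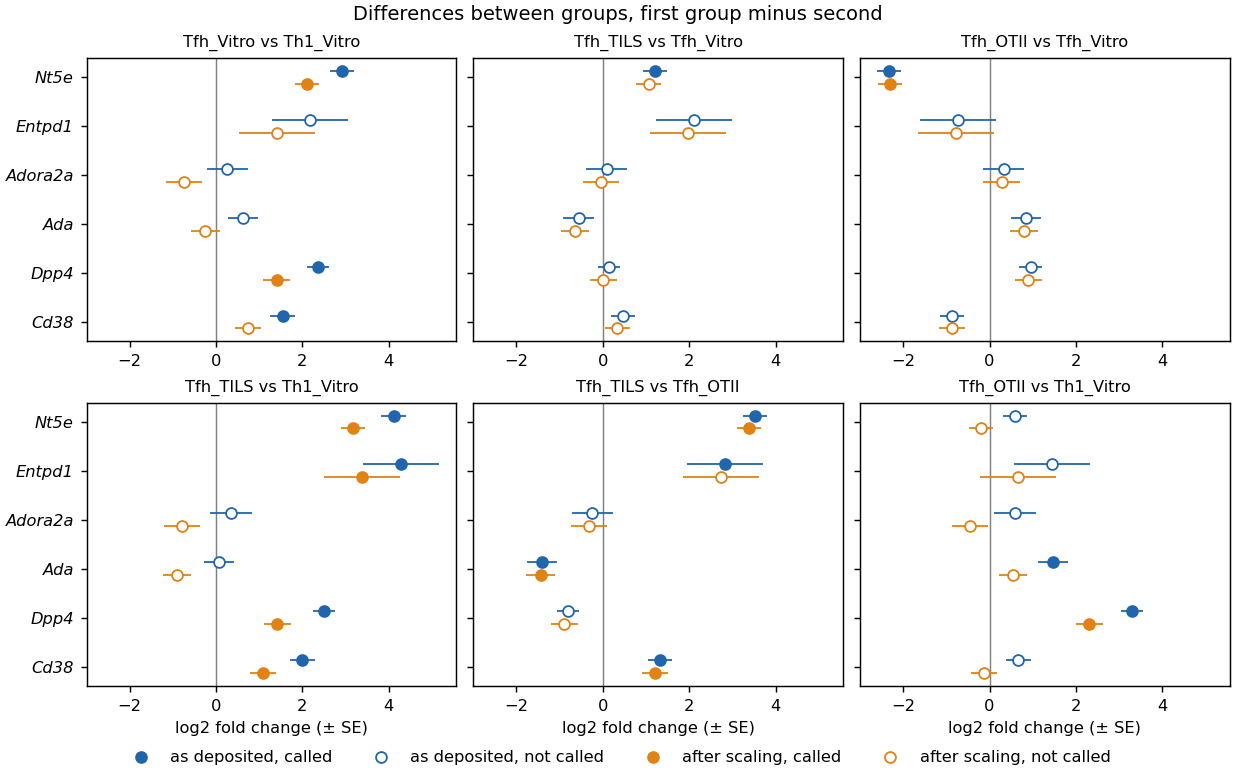
Difference of mean log2(TPM + 1) ± SE for the 6 genes in the 6 comparisons, first group minus second, as deposited (blue) and after scaling (orange), with filled points for called differences. Nt5e is furthest from 0 with a filled point both ways in Tfh_OTII against Tfh_Vitro (-2.33 and -2.31), and Adora2a has no filled point in any panel.

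Ratios of 2 genes within a library do not move with the share of TPM that other genes take, apart from the added 1. The log2 ratio of Nt5e to Ada, a making gene over a removing gene, was 3.33, 3.0 and 3.52 in Tfh_TILS. It was 1.69, 1.09 and 1.79 in Tfh_Vitro, -1.44, -1.52 and -1.99 in Tfh_OTII, and -0.47, -0.34 and -1.48 in Th1_Vitro. Nt5e thus exceeded Ada in every tumour and Tfh_Vitro library and lay below it in every Tfh_OTII and Th1_Vitro library. The tumour mean of 3.28 ± 0.26 (SD, n = 3) was 3.58 above the mean of the 9 culture libraries (-0.3 ± 1.47). The exact two-sided permutation test gave p = 0.00909, the smallest it allows here, or 0.0136 adjusted over the 3 ratios examined. With any 1 tumour library left out the difference was 3.46 to 3.72 and the exact permutation p was 0.0364 (0.0545 adjusted), the smallest that 2 against 9 libraries allow, so it says nothing of stability. The cultures are 3 unlike groups, so this tests the tumour libraries against their pool.

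The log2 ratio of Ada to Dpp4 was -2.57, -2.58 and -2.88 in Tfh_TILS, lower than in every culture library. It was -2.03 to -1.94 in Tfh_Vitro, -2.18 to -1.91 in Tfh_OTII and -1.27 to 1.02 in Th1_Vitro, so the 2 Tfh cultures overlapped. The tumour mean was 1.24 below that of the cultures (tumour minus cultures -1.24, exact two-sided permutation p = 0.00909, adjusted p = 0.0136). Tumour minus the Tfh cultures alone was -0.65 (exact permutation p = 0.0238, adjusted p = 0.0357). Each p is the smallest possible for these numbers of libraries, and each pool holds unlike cultures. With any 1 tumour library left out the difference from all cultures was -1.3 to -1.14 and the exact permutation p was 0.0364, again the smallest that 2 against 9 libraries allow. The ratio of Nt5e to Entpd1, the second step of the path over the first, was 0.14, -2.17 and -1.07 in Tfh_TILS, within the culture range of -3.25 to 0.67. Its difference was -0.14 (exact two-sided permutation p = 0.873).

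**Figure D4:**
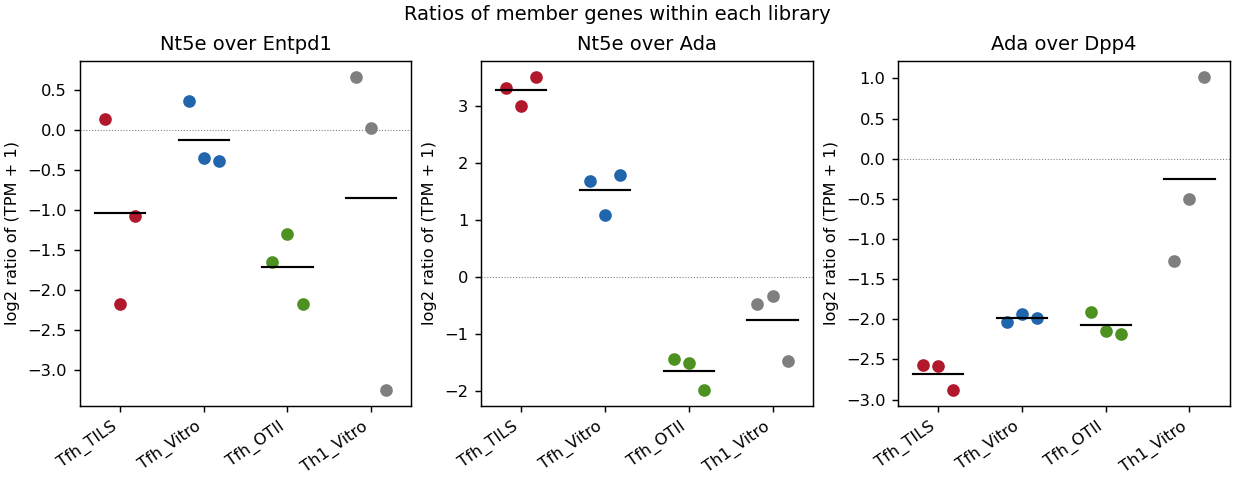
Log2 ratios of TPM + 1 of 2 genes within each library, 1 point per library, with a line at the group mean and a dotted line at equal levels. Nt5e over Ada is at 3.0 to 3.52 in the tumour libraries and below 0 in all Tfh_OTII and Th1_Vitro libraries, while the tumour libraries overlap those of each culture group in Nt5e over Entpd1.

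Other genes of the route were read from 6 lists that together hold 58 genes, 57 of them tested, including the 6 above. As deposited, 10 were called higher and 6 lower in Tfh_TILS than in Tfh_OTII (9 and 6 after scaling), 2 and 0 against Tfh_Vitro (1 and 1), and 35 and 0 against Th1_Vitro (11 and 5). In Tfh_Vitro against Th1_Vitro, 30 were higher and 0 lower (6 and 3 after scaling), in Tfh_OTII against Th1_Vitro 25 and 0 (7 and 6), and in Tfh_OTII against Tfh_Vitro 1 and 2 (0 and 2). The share of all tested genes called as deposited was 15.3%, 2.10% and 49.9% in the first 3 of these comparisons and 41.6%, 43.9% and 2.38% in the last 3. The lists were written with earlier results of these data known.

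Of the 5 NAD route genes, all 5 rose in Tfh_TILS against Tfh_OTII, where 13.6% of all tested genes were called both ways. Their median difference was 1.51 (1.38 after scaling) beside 0.06 over all genes. Besides Cd38 they were Bst1, a Cd38 relative (2.31 ± 0.38, limma adjusted p = 0.00165), Enpp1, which cuts NAD and ATP (1.42 ± 0.37, adjusted p = 0.0218), the ADP-ribosyltransferase gene Art2b (1.51 ± 0.32, adjusted p = 0.00765) and Art2a-ps (3.07 ± 0.47, adjusted p = 0.000931). The symbol of Art2a-ps marks it as a pseudogene, so its TPM is not read as a level of enzyme. Art2b and Art2a-ps are near-identical copies between which reads could be split, so each value is uncertain. Bst1 was at 6.33, 19.4 and 8.69 TPM in Tfh_TILS and Art2a-ps at 6.21, 34.1 and 11.7 TPM, both highest in replicate 2, the library with the most macrophage and neutrophil marker TPM, whose part in them was not tested. Enpp1 was at 17.3, 9.73 and 7.46 TPM, highest in replicate 1. Its call was lost as deposited without Tfh_TILS replicate 1 (limma, adjusted p = 0.0815) or Tfh_OTII replicate 2 (0.0807) or 3 (0.0811), and that of Art2b after scaling without Tfh_TILS replicate 1 or 2 or any Tfh_OTII library (0.0511 to 0.0696). Against Th1_Vitro, 3 of the 5 rose in Tfh_TILS (Cd38, Art2b and Art2a-ps), beside 10.7% of all tested genes called both ways. As deposited all 5 were called higher there, beside 49.9% of all tested genes called. None changed both ways in the other 4 comparisons.

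Of the 9 ectonucleotidase genes, Nt5e and Enpp1 rose in Tfh_TILS against Tfh_OTII, beside 13.6% of all tested genes called both ways. Nt5e and Entpd1 rose in Tfh_TILS against Th1_Vitro, beside 10.7%. Nt5e alone rose in Tfh_Vitro against Th1_Vitro, a count near the share of 9.15%. Nt5e alone fell in Tfh_OTII against Tfh_Vitro, beside 1.82%. None changed both ways in the remaining 2 comparisons. Of the 4 adenosine receptor genes, Adora3 alone changed both ways. It did so in Tfh_TILS against Tfh_OTII and in Tfh_OTII against Tfh_Vitro, where the shares were 13.6% and 1.82%. It was at 14.2 ± 3.13 TPM in Tfh_TILS, 9.2 ± 2.55 in Tfh_Vitro, 3.24 ± 0.666 in Tfh_OTII and 4.27 ± 0.401 in Th1_Vitro (SD, n = 3 each). Adora3, which couples to an inhibitory G protein, rose in Tfh_TILS against Tfh_OTII by 1.83 ± 0.26 (limma, adjusted p = 0.000624) and fell in Tfh_OTII against Tfh_Vitro by 1.25 ± 0.26 (adjusted p = 0.025). As deposited the second call was lost without Tfh_Vitro replicate 2 (limma, adjusted p = 0.119) or 3 (0.159) or any Tfh_OTII library (0.0516 to 0.127), and after scaling also without Tfh_Vitro replicate 1 (0.0517) or Tfh_TILS replicate 3 (0.0501). Its locus overlaps Tmigd3 on the same strand, so its reads are uncertain. Adora1 and Adora2b had group means of 0.487 to 2 TPM and changed in no comparison both ways, so Adora2a and Adora3 held most of the receptor TPM in each group.

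Of the 13 uptake and breakdown genes, Ada and Ahcy fell in Tfh_TILS against Tfh_OTII. That count is near the share of all tested genes called both ways there, 13.6%. Dpp4 was the 1 gene that rose against Th1_Vitro in each Tfh group. This count is not above the share of all tested genes called both ways against Th1_Vitro. That share was 9.15% in Tfh_Vitro, 10.7% in Tfh_TILS and 13.4% in Tfh_OTII. Ahcy, whose enzyme releases adenosine inside the cell from S-adenosylhomocysteine, was at 30.3 ± 3.86 TPM in Tfh_TILS and 80.3 ± 2.59 TPM in Tfh_OTII (-1.38 ± 0.34, limma adjusted p = 0.0162). As deposited its call was lost without Tfh_TILS replicate 2 (limma, adjusted p = 0.0539) or Tfh_OTII replicate 2 (0.0509) or 3 (0.0533). Adk, the kinase that turns adenosine back into AMP, had group means of 31.2 to 45.4 TPM and Slc29a1, an adenosine transporter, of 24.5 to 31.7 TPM, both above Ada in each group.

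Of the 17 genes of cyclic AMP signalling below such receptors, 4 fell in Tfh_TILS against Tfh_OTII and 0 rose by limma, beside 13.6% of all tested genes called both ways. They were the adenylyl cyclase genes Adcy6 (-2.19 ± 0.29, limma adjusted p = 0.000392) and Adcy9 (-0.94 ± 0.26, adjusted p = 0.0254), the cyclic AMP-degrading Pde3b (-1.08 ± 0.19, adjusted p = 0.0028) and the protein kinase A gene Prkaca (-1.4 ± 0.24, adjusted p = 0.00182). The call of Adcy9, at 0.628 to 2.14 TPM in these groups, was lost with any Tfh_TILS library or Tfh_OTII replicate 1 or 3 left out (limma, adjusted p from 0.0506 to 0.0612), and after scaling with any library of these 2 groups left out (0.0528 to 0.0779). Adcy6 was at 7.69 ± 1.56 TPM in Tfh_TILS, 16.1 ± 3.35 in Tfh_Vitro, 38.2 ± 3.26 in Tfh_OTII and 3.67 ± 1.6 in Th1_Vitro. Against Th1_Vitro, 6 of the 17 rose in Tfh_OTII (Adcy6, Adcy9, Pde3b, Prkacb, Prkar1b and Prkar2a), beside 13.4% of all genes, and of these Adcy6 and Prkar2a held with any 1 library left out. In Tfh_Vitro 3 rose (Adcy6, Prkar1b and Prkar2a), beside 9.15% of all genes, and in Tfh_TILS 2 (Creb1 and Prkar1b), near the share of 10.7% of all genes, and after scaling each of these was lost with 1 of several libraries left out. Of the 11 genes of ATP release and P2 receptors, 10 were tested. P2rx4 and P2ry10 rose in Tfh_TILS against Tfh_OTII, beside 13.6% of all tested genes called both ways. P2rx7, P2ry10 and P2ry12 rose in Tfh_TILS against Th1_Vitro, beside 10.7%. P2ry12 rose in Tfh_Vitro against Th1_Vitro, a count near the share of 9.15%. P2rx7 encodes a receptor that opens on high ATP or on ADP-ribosylation by the Art2 enzymes. It differed by 2.33 ± 0.39 in Tfh_TILS against Th1_Vitro (limma, adjusted p = 0.000455). As deposited, the call of P2rx4 was lost with any 1 of 9 libraries left out (limma, adjusted p from 0.0556 to 0.165) and that of P2ry10 against Tfh_OTII without Tfh_OTII replicate 3 (0.052). Both were lost after scaling without Tfh_TILS replicate 2 (limma, adjusted p = 0.112 and 0.113 against Tfh_OTII), and each call of P2ry12 with any of several libraries left out.

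**Figure D5:**
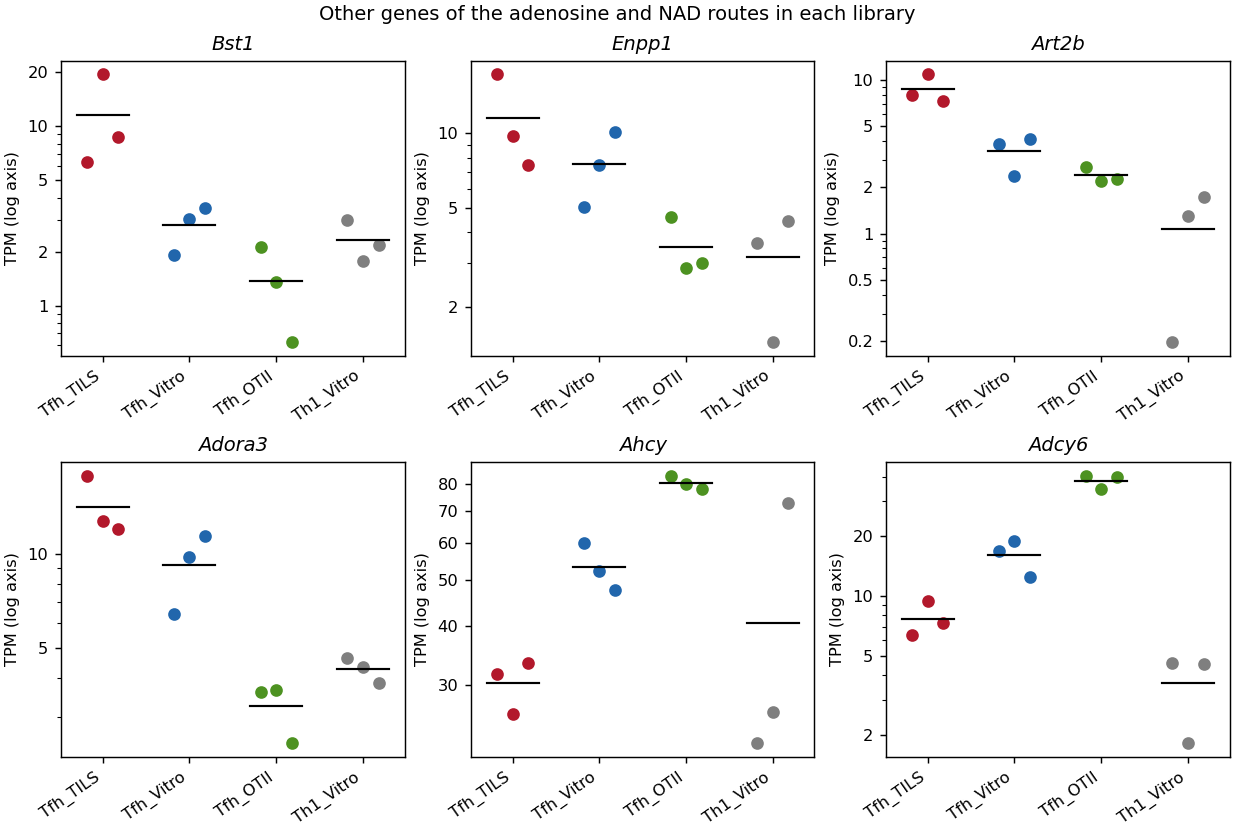
TPM (log axis) of 6 further genes of the route in the 12 libraries, 1 point per library, with a line at the group mean. Bst1, Enpp1, Art2b and Adora3 are higher in each tumour library than in each Tfh_OTII library, and Ahcy and Adcy6 are lower.

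Genes most like each member over the 12 libraries were ranked by Pearson correlation of log2(scaled TPM + 1) among 10685 named genes, as a description, since the libraries share groups and processing. Nearest to Nt5e were Itgb8 (r = 0.976), Foxp3 (0.976) and Ikzf2 (0.967), the last 2 known as regulatory T cell genes. Mean TPM of Itgb8, an integrin gene, was 30.7 in Tfh_TILS, 8.44 in Tfh_Vitro, 1.5 in Tfh_OTII and 0.413 in Th1_Vitro, the same order of groups as Nt5e as deposited. Nearest to Entpd1 were Stat2 (0.945), Bag3 (0.932) and Sntb1 (0.932), and nearest to Cd38 were Tmem126b (0.977), Sfta2 (0.96) and Tnfrsf11a (0.959). Among the nearest to Adora2a were Hps1 (0.971) and Acaa1a (0.948). Nearest to Ada were Cnpy4 (0.964), Park7 (0.963) and Commd1 (0.963), and nearest to Dpp4 were Cnbd2 (0.976), Fam76b (0.975) and Mfap1b (0.972). No member was among the 3 nearest genes of another.

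The remaining marker lists put the members' values in context. B cell markers (9 genes) summed to 150 to 159 TPM in Tfh_TILS, 78.1 to 100 in Tfh_Vitro, 45.2 to 59.7 in Tfh_OTII and 71.9 to 102 in Th1_Vitro, so their sum was highest where Nt5e was highest and lowest in Tfh_OTII. NK cell markers (6 genes) summed to 51.1 to 84.1, 55.2 to 91.6, 25.7 to 39.7 and 9.9 to 17.4 TPM in the same order of groups, with Ncr1 at 0 in at least 1 Tfh_OTII library. Most of this sum in Tfh_TILS and Tfh_Vitro was Klre1, at 32 to 56.7 and 36.2 to 65.2 TPM. Ncr1, Klra8 and Klrb1c were at 3.16 TPM or less in every library. Klrd1 went the other way between Tfh_Vitro (3.87 to 5.12 TPM) and Tfh_OTII (5.84 to 10.9 TPM). CD8 T cell markers (2 genes) summed to 6.91 to 27.6 TPM over all libraries, highest in Tfh_OTII through Cd8b1 (18.4 to 21.7 TPM there), while Cd8a was at 2.13 to 5.93 TPM in Tfh_OTII and 5.56 to 7.22 TPM in Tfh_Vitro. Endothelial and stromal markers (8 genes) summed to 34.2 to 160 TPM, most of it Pecam1 (26.4 to 140 TPM) in every library. Colon carcinoma and epithelial markers (5 genes) summed to 0.831 to 15.7 TPM, with Krt19 at 0 in at least 1 tumour library. The part of these cells in the members' values was not tested.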

How the data were processed

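RNA of 12 libraries was quantified by the authors with kallisto on mm10, per the submitters' processing notes; the version and transcript annotation are not given in the sources used here. The deposited values are TPM, 1 per gene symbol, summing to 1000000 per library. No counts were analysed, so depth and counting error are unknown. Of 35492 symbols, 34699 matched GENCODE mouse release 21 and 714 were 0 in every library.

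The 23308 genes whose mean reached 1 TPM in any group, all 6 members among them, were fitted as log2(TPM + 1) with limma 3.58.1 (R 4.3.3), 1 mean per group over all 12 libraries, an intensity trend in the prior variance, pairwise contrasts and Benjamini-Hochberg adjustment over the genes of a comparison. The fit was tested on simulated data. Scaled values are TPM divided by median-of-ratios size factors over 17585 genes above 0 in every library. Ratios were tested by exact permutation with scipy 1.17.1, and tables and figures used Python 3.11.15, numpy 2.4.6, pandas 2.3.3 and matplotlib 3.10.9. Groups and replicate numbers come from the titles.

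The members, the pathway lists (ectonucleotidases, NAD route, adenosine receptors, uptake and breakdown, cyclic AMP signalling, ATP release and P2 receptors) and the marker lists were chosen with earlier results of these data known. The text names all 6 members, the gate genes Cd4, Cxcr5 and Pdcd1, Foxp3, genes of a pathway list called in the same direction as deposited and after scaling, and the 3 genes most correlated with each member among named genes with a group mean of at least 5 TPM, of which 1 is not reported here. Adk, Slc29a1, Adora1, Adora2b, Lrrc32, Ctla4, Il2ra, Nrp1, Tnfrsf18, Cd8a and Cd8b1 are named beside that rule, chosen after their values were seen. So are Cd74, H2-Aa, H2-Ab1, Ccr7, Xcr1, Clec9a, Klre1, Klrd1, Klra8, Klrb1c, Ncr1 and Pecam1. Order within groups against Foxp3 and macrophage markers was also examined after seeing the data. Promoter windows are RefSeq's, build GRCm38.p6, for 5 of the 6 members. Alternatives were trimmed-mean scaling, no filter on low values or one at 5 TPM, a pseudocount of 0.1, the 2 compared groups alone, the replicate block and each library left out.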

Additional observations from a re-analysis of the deposited data

How the results depend on the processing

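The number of members called depended on scaling and on single libraries in some comparisons. In Tfh_TILS against Tfh_Vitro it went from 1 to 0 with median-of-ratios scaling, trimmed-mean scaling, a pseudocount of 0.1, no filter or the replicate block. In Tfh_OTII against Th1_Vitro it went from 2 to 1 with either scaling and to 3 with a pseudocount of 0.1, where Cd38 was called (0.94, limma adjusted p = 0.0471), and in Tfh_OTII against Tfh_Vitro from 1 to 3 in a fit of those groups alone, where Ada and Dpp4 were called. Among pathway genes, median-of-ratios scaling left 9 called in Tfh_Vitro, 16 in Tfh_TILS and 13 in Tfh_OTII against Th1_Vitro, an alternative added after seeing the data, as were those below for pathway genes. With 1 library left out, members called ranged from 3 to 6 in Tfh_Vitro against Th1_Vitro, 0 to 1 in Tfh_TILS against Tfh_Vitro (0 to 1 after scaling), 1 to 2 in Tfh_OTII against Tfh_Vitro (1 to 2 after scaling), 2 to 5 in Tfh_TILS against Tfh_OTII (1 to 5 after scaling) and 2 to 4 in Tfh_OTII against Th1_Vitro. In Tfh_TILS against Th1_Vitro they ranged from 4 to 5 as deposited and 2 to 4 after scaling. Each highest count listed, other than those of Tfh_TILS against Tfh_Vitro and of Tfh_TILS against Th1_Vitro after scaling, was reached without Th1_Vitro replicate 3. Pathway genes called ranged from 18 (without Tfh_Vitro replicate 3) to 36 (without Th1_Vitro replicate 3) in Tfh_Vitro against Th1_Vitro, 0 (without Tfh_TILS replicate 2) to 7 in Tfh_TILS against Tfh_Vitro, 1 (without Tfh_Vitro replicate 2) to 5 in Tfh_OTII against Tfh_Vitro and 9 (without Tfh_OTII replicate 3) to 19 in Tfh_TILS against Tfh_OTII, the last 3 highest counts without Th1_Vitro replicate 3.

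Differences that changed sign were not called in the fit reported. Under median-of-ratios and trimmed-mean scaling they became -0.75 and -0.68 for Adora2a and -0.25 and -0.2 for Ada in Tfh_Vitro against Th1_Vitro, -0.04 and -0.08 for Adora2a in Tfh_TILS against Tfh_Vitro, and -0.79 and -0.76 for Adora2a and -0.9 and -0.88 for Ada in Tfh_TILS against Th1_Vitro. In Tfh_OTII against Th1_Vitro they became -0.2 and -0.15 for Nt5e, -0.46 and -0.39 for Adora2a and -0.13 and -0.07 for Cd38. Dpp4 in Tfh_TILS against Tfh_Vitro became -0.03 with trimmed-mean scaling. With 1 library left out, Adora2a ranged from -0.16 to 1.0 in Tfh_Vitro against Th1_Vitro, -0.11 to 0.36 in Tfh_TILS against Tfh_Vitro (-0.17 to 0.15 after scaling), -0.07 to 1.09 in Tfh_TILS against Th1_Vitro, -0.44 to 0.04 in Tfh_TILS against Tfh_OTII and, after scaling, -0.88 to 0.17 in Tfh_OTII against Th1_Vitro. Dpp4 ranged from -0.1 to 0.32 in Tfh_TILS against Tfh_Vitro (-0.16 to 0.11 after scaling). Ada ranged from -0.28 to 0.46 in Tfh_TILS against Th1_Vitro and, after scaling, from -0.63 to 0.06 in Tfh_Vitro against Th1_Vitro. After scaling, Tfh_OTII against Th1_Vitro ranged from -0.44 to 0.09 for Nt5e, -0.46 to 1.89 for Entpd1 and -0.43 to 0.17 for Cd38. The cause was not tested. The ratio differences ranged from -0.72 to 0.43 for Nt5e over Entpd1, 3.37 to 3.84 for Nt5e over Ada and -1.34 to -0.94 for Ada over Dpp4. Without 1 tumour library the last 2 had an exact permutation p of 0.0364 (0.0545 adjusted), the smallest that 2 against 9 libraries allow, which says nothing of stability.

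Between samples with the same replicate number, correlations of deviations ran from -0.386 to 0.303 over 18 pairs, 3 of them over 0.1. From 3 libraries per group these values cannot settle whether the numbers pair the samples. With the replicate number as a block, members called were 4, 0, 1, 4, 4 and 2 in Tfh_Vitro against Th1_Vitro, Tfh_TILS against Tfh_Vitro, Tfh_OTII against Tfh_Vitro, Tfh_TILS against Th1_Vitro, Tfh_TILS against Tfh_OTII and Tfh_OTII against Th1_Vitro, and pathway genes called were 0 in Tfh_TILS against Tfh_Vitro and 1 in Tfh_OTII against Tfh_Vitro. Of the members' single calls, the block changed 3: Entpd1 in Tfh_Vitro against Th1_Vitro (limma, adjusted p = 0.0436), Nt5e in Tfh_TILS against Tfh_Vitro (0.0937) and, after scaling, Entpd1 in Tfh_TILS against Tfh_OTII (0.0313). Depth is unknown, so what it limits cannot be given.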
